A study of Mus musculus with 8 samples.

Results

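DNA methylation was examined at 10 mouse genes of the ETS family: Etv1, its closest relatives Etv4 and Etv5, and Etv2, Etv6, Ets1, Ets2, Elf3, Fli1 and Erg. For each gene, the cytosines of the gene body (GENCODE M21, mm10/GRCm38) and of the 5000 bp upstream were taken if they had 10 or more reads in all 8 libraries, a choice that used coverage and not methylation. This left 405 of 567750 such cytosines and 76 of the 113626 genome tiles of 1000 bp that held them. Of the 10 genes among 53843 annotated, 9 had at least 1 tile, and Etv2 had none. Etv4 held 81 of the cytosines, Ets2 65, Etv5 59, Erg 55, Fli1 54, Etv6 52, Etv1 25, Ets1 13 and Elf3 1.

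Reduced representation bisulfite sequencing (RRBS) reads methylation in fragments cut at CCGG sites, and was applied to tumors of NIC-5231 cells, a line from an ErbB2-driven mouse mammary tumor. NSG mice, an immunodeficient strain, were 5 to 7 weeks old when 1000000 cells were placed in the fat pad. There were 4 groups of 5 mice, which received intraperitoneal injections every 2 days of vehicle alone (a mixture of saline, PEG and DMSO, labelled DMSO), of C29 (an inhibitor of the nuclear receptor ERRα, 10 mg/kg), of 5-azadC (decitabine, a cytidine analog that traps DNA methyltransferases, 1 mg/kg), or of both, all in that same vehicle. Every group is represented by 2 libraries, with the tumor DNA of 2 mice pooled in each, so the spread within a group is that of 2 pools. All tumors came from 1 cell line. Host and tumor are both mouse, so a cell type's share of the DNA and its own methylation cannot be told apart, and no expression was measured in these samples.

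ETS factors bind DNA through a winged-helix domain that recognizes a GGA core. Etv1, Etv4 and Etv5 form the PEA3 group, which is induced by growth factor receptors and activated by phosphorylation through the Ras and ERK kinases, and Etv4 has long been associated with ErbB2-driven mammary tumors. CpG-rich start sites of active or poised genes are usually unmethylated in mammals, while the bodies of transcribed genes are usually methylated.

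Summed over cytosines, the libraries held 51359825 to 81299065 reads, with a median of 21 to 30 reads per cytosine. Spike-in controls read 0.216% to 0.329% methylated where unmethylated and 97.5% to 98.3% where methylated. As a description of the tissue, start-site regions of epithelial genes (5 of 7 measured) had a mean of 4.24% to 9.56% methylation over the libraries, fibroblast genes (2 of 6) 5.83% to 28.5%, and the endothelial gene Kdr (1 of 6 measured) 8.83% to 27.5%, while 0 of 6 leukocyte genes were measured. Their part in the ETS gene values was not tested. The 10 genes and their upstream sequence hold 24304 CpG cytosines in GRCm38, of which 1.67% were measured, all 405 of them within 150 bp of a CCGG site. What follows therefore describes the measured fragments and not whole genes. Per gene, the measured share ran from 0.263% at Elf3 and 0.455% at Ets1 to 7.24% at Ets2 and 11.2% at Etv4.

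Start-site region levels separated the genes into unmethylated and methylated ones in every treatment. A start-site region was the 1000 bp either side of any protein-coding transcript start, and its level the mean percent methylation of its cytosines. Etv1 (chr12:38779380-38870484, plus strand, ENSMUSG00000004151.17), the factor the group was chosen around, had 16 cytosines there. Its level was 0.142% in vehicle library 2 and 0% in the other 7 libraries. Reads summed over the 16 cytosines numbered 489 to 1090 per library, and 1 of 6293 in all was methylated. With 0 methylated, the shallowest library still allows a share of up to 0.613% if these counts are independent. Cytosines close together sit on the same reads, so the true limit may be higher. These Etv1 cytosines lie upstream of the gene's first start and in an intron just after it. The upstream stretch with 7 measured CpGs is shown because each of its 7 measured cytosines read 0% in all 8 libraries (chr12:38779085-38779297, GRCm38.p6, plus strand, CpGs with a measured cytosine in capitals).
Etv1 upstream: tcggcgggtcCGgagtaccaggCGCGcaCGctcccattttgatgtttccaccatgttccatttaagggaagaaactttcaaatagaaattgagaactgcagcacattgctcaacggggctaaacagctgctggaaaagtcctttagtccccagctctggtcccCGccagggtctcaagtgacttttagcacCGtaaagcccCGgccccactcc

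Etv4 and Etv5, the other PEA3 factors, were also low. Over 54 cytosines, Etv4 (chr11:101769742-101785371, minus strand) read 0.995% and 1.12% in the vehicle libraries, 0.754% and 1.07% with C29, 0% and 1.21% with 5-azadC, and 0% and 1.38% with both drugs. Over 47 cytosines, Etv5 (chr16:22381309-22439719, minus strand) read 0.582% and 0.109% with vehicle, 0.458% and 0.311% with C29, 0% and 0.435% with 5-azadC, and 0.0851% and 0% with both. At both genes the libraries with and without 5-azadC overlapped, and so did those with and without C29. At Etv4, 43 of the 54 cytosines stayed below 5% in every library, and the other 11 reached 5% or more in at least 1 library.

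Ets2, a Ras-responsive factor (chr16:95702075-95721051, plus strand), read between 0% and 0.972% over 50 cytosines, with its highest value in the first library of both drugs. Ets1, its paralog (chr9:32636221-32757820, plus strand), had only 2 start-site cytosines, both at 0% in all libraries. Reads summed over these 2 numbered 30 to 168 per library. With the cytosines that had 10 reads in the given library only, 27 to 58 cytosines of Ets1 were seen, at 0% to 2.44%. Etv6, a repressor needed for blood formation (chr6:134035700-134270158, plus strand), read 0% in 7 libraries over 12 cytosines and 2.68% in 5-azadC library 2, where a single cytosine at 134035333 on chromosome 6 read 32.1% from 28 reads. Over these 6 genes, 157 of 181 start-site cytosines stayed below 5% in all 8 libraries.

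Fli1 and Erg, factors of endothelial and blood cells, were the methylated exceptions by the level of the start-site region. Over 35 cytosines, Fli1 (chr9:32422204-32542861, minus strand) read 24.7% and 17.8% with vehicle, 25.4% and 16.0% with C29, 16.1% and 21.2% with 5-azadC, and 23.8% and 26.1% with both drugs. The 4 libraries with 5-azadC (21.8% ± 4.31, SD) overlapped the 4 without (21.0% ± 4.76, SD). Of the 35 Fli1 cytosines, 1 stayed below 5% in all libraries, and the others reached 5% or more in at least 1.

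At Erg (chr16:95359169-95586593, minus strand), 5 cytosines near 2 of its start regions were measured. The region level was 56.3% and 59.4% with vehicle, 66.1% and 50% with C29, 79.4% and 49.1% with 5-azadC, and 51.7% and 54.4% with both drugs. The 2 libraries with 5-azadC alone were the highest and the lowest of all 8. Only 1 of these cytosines lies near the gene's first start. It read 23.5% and 0% with vehicle and 0% and 32.6% with C29, from 15 to 46 reads over all libraries. With 5-azadC it read 0% in both libraries, and with both drugs 0% and 56.25%. The high region level therefore comes from cytosines near internal starts. At 4 cytosines near the internal starts, the level was 64.5% and 74.3% with vehicle and 82.7% and 54.3% with C29. It was 99.3% and 61.4% with 5-azadC, and 64.6% and 53.9% with both drugs. The fragment with these 4 lies in an intron downstream of those starts and holds no start, whereas the Etv1 stretch lies upstream of one. It is shown as a methylated stretch within 1000 bp of a start (chr16:95458388-95458473, GRCm38.p6, plus strand, capitals as before).
Erg internal start: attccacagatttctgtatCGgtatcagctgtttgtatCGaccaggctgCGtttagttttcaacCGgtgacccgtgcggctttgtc

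Etv2, a driver of blood vessel formation, and Elf3, an epithelial factor, had no start-site cytosine with 10 reads in all libraries. By cytosines with 10 reads in the given library, Etv2 gave 1 to 8 cytosines per library at 0% to 15.1%. Elf3 gave 0 to 3 cytosines, in 4 of the 8 libraries. These sets differ between libraries, so no comparison was made.

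**Figure D1:**
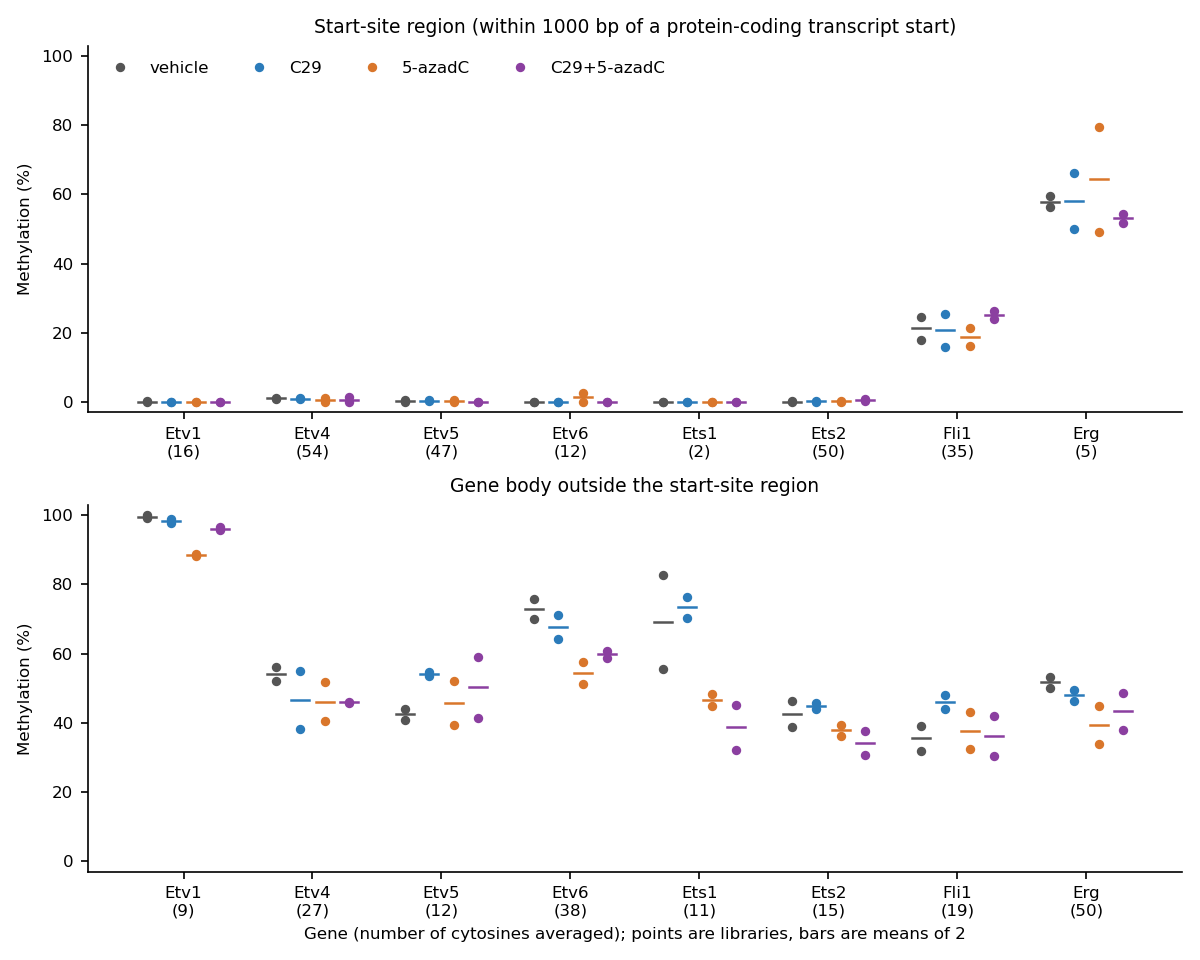
Mean methylation (%) of the measured cytosines of 8 ETS genes in the start-site region (top) and the rest of the gene (bottom), with 1 point per library, 4 treatments by colour and a bar at the mean of 2. The start-site regions of Etv1, Etv4, Etv5, Etv6, Ets1 and Ets2 lie below 2.68% or at it, Fli1 and Erg lie above 16.0% or at it, and gene bodies lie between 30.5% and 100%.

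RefSeq windows of 300 bp (250 before a start and 50 after, GRCm38.p6) were listed for 7 of the 10 genes in 11 windows and not for Etv4, Ets1 or Fli1. The windows at the main starts of Etv5 and Ets2 held 37 and 30 CpGs, more than 94.4% and 88.3% of the 32851 windows of all genes. The 3 Erg windows held 16, 4 and 2 CpGs, and the median of all windows was 7. The ETS motif CCGGAAGT, searched on both strands, was in none of the 11 windows and in 3.89% of all windows.

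No start-site region of an ETS gene passed the test for either drug. Levels were fitted with limma over the 16290 regions of all genes with at least 3 cytosines and values that varied, with the 4 libraries containing 5-azadC against the 4 without, and likewise for C29. Of the 7 ETS genes tested, 0 had an adjusted p below 0.05 for 5-azadC or for C29, against a background of 0% of all regions, and 0 had an unadjusted p below 0.05, against 6.56% for 5-azadC and 4.81% for C29. The 5-azadC difference was 0.87 points for Fli1 (SE 3.56, limma adjusted p = 0.944) and 0.70 points for Erg (SE 7.80, limma adjusted p = 0.977), both smaller than the spread between libraries. For Etv4 it was -0.34 points (SE 0.432, limma adjusted p = 0.823). In none of the 7 did the 4 libraries with a drug lie wholly below or above the other 4, which was so in 2.85% and 0.633% of 16904 regions for 5-azadC and in 1.1% and 0.834% for C29. Start-site regions stayed below 5% in all libraries for 5 of the 7 ETS genes and for 8870 of 16904 measured genes.

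Gene bodies were methylated in every ETS gene measured there. The body was the rest of the gene outside the start-site region, and 8 of the 10 genes had 9 to 50 cytosines there. The vehicle level was highest at Etv1, at 99.2% and 100%, and the 4 libraries without 5-azadC all lay at 97.8% or above. With 5-azadC alone, Etv1 read 88.9% and 88.1%, and with both drugs 95.6% and 96.5%. All 4 libraries with 5-azadC were below all 4 without, a difference of -6.68 points (SE 2.10).

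Ets1 showed the largest difference. Its 11 body cytosines read 55.6% and 82.6% with vehicle, 70.4% and 76.3% with C29, 44.8% and 48.4% with 5-azadC, and 32.2% and 45.2% with both drugs. The 4 libraries with 5-azadC had a mean of 42.6% ± 7.15 (SD) against 71.2% ± 11.6 (SD) in the others, a difference of -28.6 points (SE 6.90). Of the 12346 gene bodies tested with limma, 0.729% had a lower difference than Ets1, 51.8% a lower one than Etv1 and 17.6% than Etv6. At Ets1 the vehicle libraries differed from each other by almost as much as the groups.

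Etv6 also separated by 5-azadC. Over 38 cytosines it read 70.2% and 75.9% with vehicle, 64.2% and 71.3% with C29, 51.2% and 57.6% with 5-azadC, and 58.8% and 60.8% with both drugs. The difference was -13.3 points (SE 3.85).

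For Etv1, Ets1 and Etv6 the exact permutation test of 4 libraries against 4, two-sided, gave p = 0.0286, which is the smallest it can give. Such a separation was seen in 3 of 8 ETS gene bodies and in 18% of the bodies of all genes, while the opposite order was seen in 0 and in 0.137%. None of the 8 passed limma over 12346 gene bodies, where 1 gene in all (0.0081%) did. The adjusted p was 0.120 for Ets1, 0.129 for Etv6 and 0.140 for Etv1. Unadjusted, 3 of 8 had p below 0.05, against 25.8% of all bodies. The median difference was -7.16 points over the 8 ETS genes and -6.94 points over all genes measured.

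The other bodies overlapped between libraries with and without 5-azadC. Erg read 53.4% and 50.1% with vehicle, 49.6% and 46.4% with C29, 44.9% and 34.0% with 5-azadC, and 38.1% and 48.8% with both, a difference of -8.43 points (SE 4.28, limma adjusted p = 0.254). Ets2 read 38.8% and 46.2% with vehicle, 45.6% and 43.9% with C29, 39.4% and 36.3% with 5-azadC, and 30.6% and 37.7% with both, a difference of -7.64 points (SE 3.35, limma adjusted p = 0.208). At Erg the second combination library lay above the second C29 library, and at Ets2 the first 5-azadC library lay above the first vehicle library.

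Etv4 read 52.2% and 56.1% with vehicle, 54.9% and 38.3% with C29, 40.5% and 51.8% with 5-azadC, and 45.8% and 46.1% with both. Etv5 read 41.0% and 43.9% with vehicle, 53.5% and 54.7% with C29, 39.3% and 52.2% with 5-azadC, and 59.0% and 41.5% with both. Fli1 read 39.0% and 32.0% with vehicle, 44.1% and 48.2% with C29, 43.1% and 32.3% with 5-azadC, and 30.5% and 42.0% with both. In these 3 genes libraries of 1 treatment spanned much of the range, and the 5-azadC differences were -4.32 (SE 5.05), -0.25 (SE 5.28) and -3.82 (SE 4.32) points.

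C29 separated no ETS gene body, against 0.718% (below) and 1.03% (above) of all bodies. In limma 0 of 8 passed for C29 (0.0081% of all) and 0 had an unadjusted p below 0.05 (6.15%), the lowest adjusted p being 0.904. The largest C29 difference was 8.08 points (SE 5.28) at Etv5, where both C29 libraries lay above both vehicle libraries. Whether 5-azadC acted differently with and without C29 was tested as an interaction in limma, and no ETS gene passed. The lowest adjusted p was 0.827 in limma, at the Etv1 body, where the effects differed by 8.80 points (SE 4.20).

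**Figure D2:**
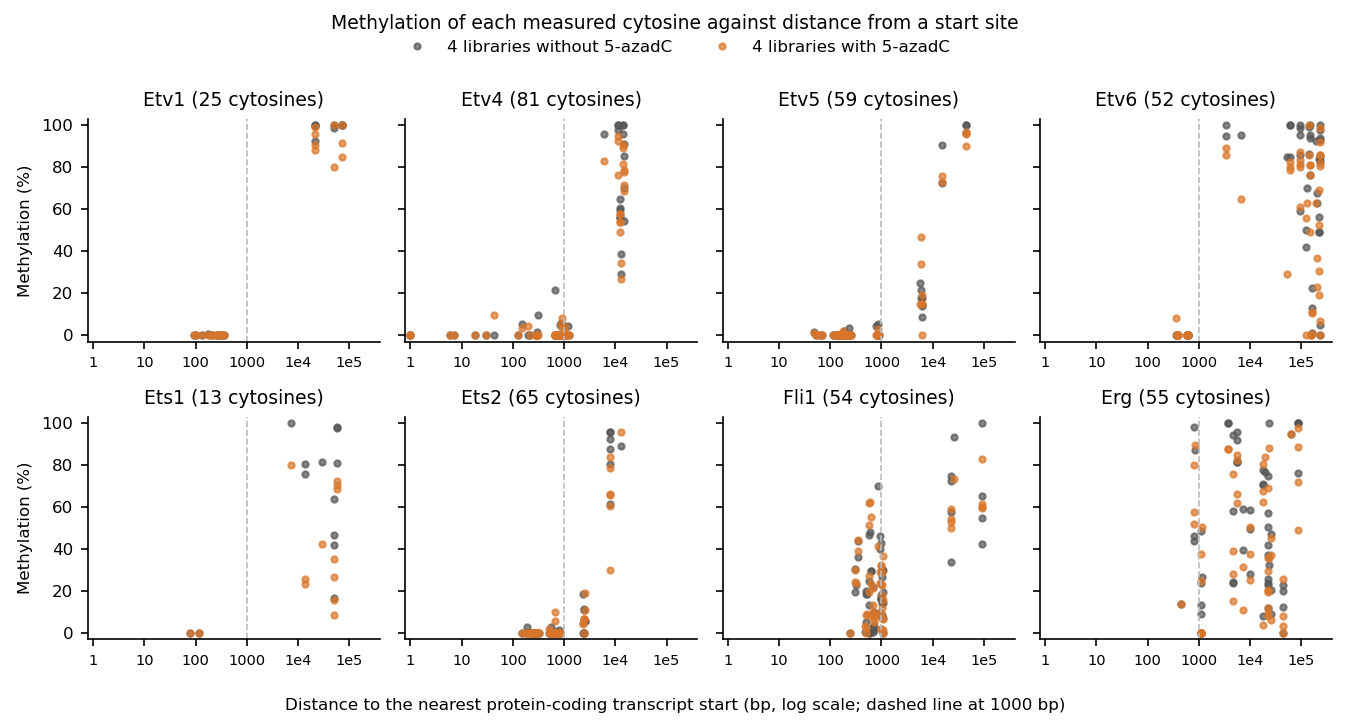
Percent methylation of each measured cytosine in 8 ETS genes against its distance in bp (log scale) to the nearest protein-coding transcript start, as the mean of the 4 libraries without 5-azadC (grey) and the 4 with it (orange). Within 1000 bp of a start nearly all cytosines of Etv1, Etv4, Etv5, Etv6, Ets1 and Ets2 lie near 0, whereas those of Fli1 and Erg are intermediate, and farther out most cytosines are methylated.

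Tiles of 1000 bp gave the finer view, with reads pooled over the cytosines of a tile and the libraries of a group. A tile was called when a logistic likelihood-ratio test gave a Benjamini-Hochberg q below 0.01 over all 113626 tiles and the difference was at least 25 percentage points. This test takes no account of the spread between the 2 libraries of a group. Of the 76 ETS tiles, 35 rested on 1 or 2 cytosines and 41 on 3 or more.

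With 5-azadC, 15 of the 76 ETS tiles were called (19.7%), against 15.4% of all tiles. Of these, 14 were lower and 1 higher, where 12.7% of all tiles were called lower and 2.72% higher. Etv6 held 7 of the lower tiles, Erg 3, Ets1 2, and Etv5 and Fli1 1 each. With both drugs, 14 ETS tiles were called (18.4%), against 15.1% of all tiles. Of these, 12 were lower and 2 higher (11.6% and 3.49% of all tiles), and Etv6 held 6 of the lower ones, Ets1 3, Erg 2 and Etv4 1. With C29, 9 were called (11.8%), against 10.6%, with 6 lower and 3 higher (5.43% and 5.21% of all tiles). No tile of Etv1 or Ets2 was called against vehicle. These shares lie near those of the genome, and the 3 comparisons share the vehicle libraries. The median difference over the ETS tiles was -9.36 points for 5-azadC, -4.52 for the combination and 0 for C29, against -4.96, -2.91 and 0 over all tiles.

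Against 5-azadC alone, the combination called 6 ETS tiles (7.89%), against 13.9% of all tiles. Of these, 1 was lower and 5 were higher (6% and 7.93% of all tiles). The only 1 with more than 2 cytosines (1 of 41, against 4.82% of all such tiles) was a tile of coding exon in Etv4 (chr11:101770001-101771000, 4 cytosines), at 74.3% and 46.9% with 5-azadC and 99.2% and 77.0% with both drugs, singled out after its values were seen. Against C29 alone, the combination called 13 ETS tiles (17.1%), with 15.1% of all tiles called. Of these, 10 were lower and 3 higher (11.4% and 3.68%), Ets1 held 4 of the 10, and 3 of the 41 tiles of 3 or more cytosines were called (6.04%).

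Calls rested mostly on few cytosines, among ETS tiles as over the genome, though less so among the ETS calls with C29. None was made by a test that uses the spread between libraries. Tiles of 1 or 2 cytosines made up 12 of the 15 calls with 5-azadC, 11 of the 14 with both drugs and 5 of the 9 with C29 (80%, 78.6% and 55.6%), against 80.7%, 80.9% and 84.9% of the calls over all tiles. Among the 41 ETS tiles of 3 or more cytosines, 3, 3 and 4 were called in these comparisons (7.32%, 7.32% and 9.76%), against 6.32%, 6.11% and 3.42% of all such tiles. Over calls of any size, the treated pair was entirely above or entirely below the vehicle pair in 12 of the 15, 8 of the 14 and 5 of the 9 (80%, 57.1% and 55.6%), against 71.0%, 65.4% and 63.6% of the calls over all tiles. Between the 2 libraries of a group, the vehicle pair differed by 25 points or more in 14 of the 76 ETS tiles, the C29 pair in 19, the 5-azadC pair in 24 and the combination pair in 22 (18.4%, 25%, 31.6% and 28.9%), against 18.3%, 19.7%, 23.3% and 25.8% of all tiles. The quasi-likelihood test of edgeR, which uses that spread, called 0 ETS tiles in each comparison, and 0 (0%) of all tiles. At an unadjusted p below 0.05 it gave 6 ETS tiles for 5-azadC (4.13% of all tiles), 1 for the combination (3.87%) and 0 for C29 (2.77%). It gave 1 (2.22%) and 2 (3.58%) for the combination against 5-azadC and against C29. An F test corrected for overdispersion also called 0, and at an unadjusted p below 0.05 gave 3 for C29 (4.36%), 10 for 5-azadC (7.1%), 5 for the combination (5.9%), 5 against 5-azadC (4.42%) and 3 against C29 (5.59%). With 2 libraries against 2, the exact permutation test cannot go below p = 0.333.

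**Figure D3:**
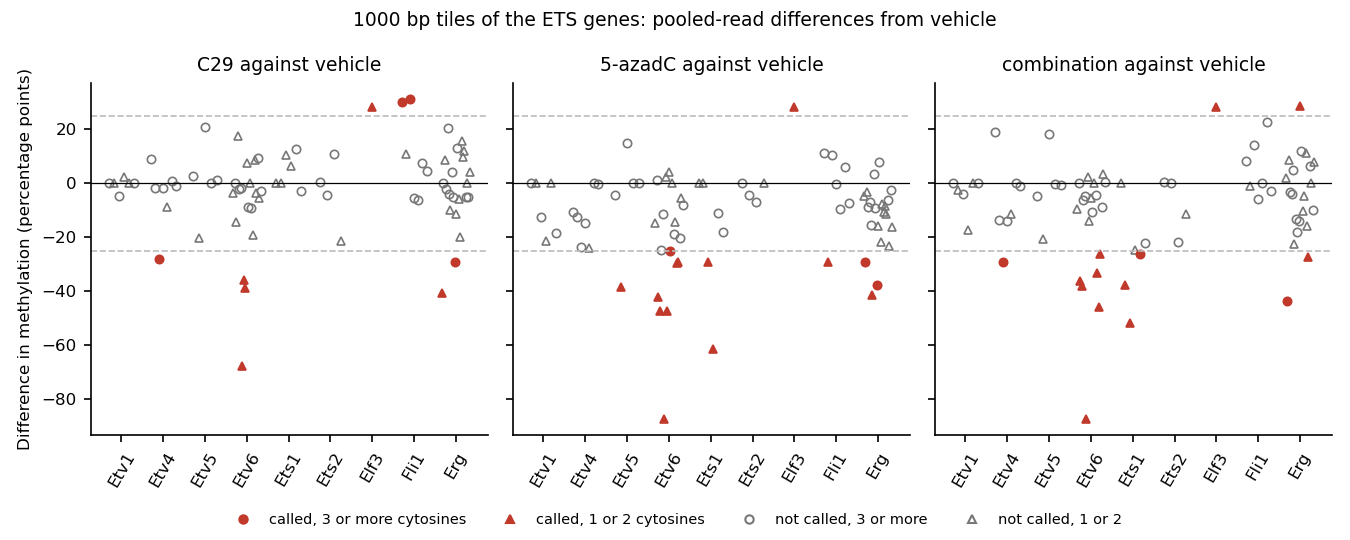
Difference from vehicle, in percentage points of pooled reads, for the 76 tiles of 9 ETS genes after C29, 5-azadC or both, with filled red symbols for called tiles, circles for 3 or more cytosines and triangles for 1 or 2. Called tiles number 9, 15 and 14, most are triangles below -25, and the 3 called higher in C29 belong to Fli1 and Elf3.

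Of the ETS tiles of 3 or more cytosines, 7 were called in at least 1 comparison with vehicle, and all 7 lie in introns. The exact 95% binomial intervals of their 56 values were 2.34 to 30.0 points wide (median 12.6), which covers counting error only. Cytosines a few bases apart sit on the same reads and are not independent.

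Erg, which is best known from gene fusions in prostate tumors, held the tile with the lowest edgeR p of these 7 (chr16:95373001-95374000, 3 cytosines). It was fully methylated, at 100%, in all 4 libraries without 5-azadC, from 45 to 156 reads each. With 5-azadC alone it read 67.1% and 93.3%, and with both drugs 52.6% and 66.7%. The pooled differences from vehicle were -29.0 and -43.6 points. The edgeR p, unadjusted, was 0.0166 for 5-azadC and 0.00653 for the combination, and both adjusted values were 1. Without the first 5-azadC library the 5-azadC difference was -6.67 points and the call was lost, while the combination call remained without any 1 library. Its 3 CpGs are printed with a fragment of another Erg tile (chr16:95373060-95373112 and chr16:95469223-95469277, plus strand, capitals as before).
Erg intron A: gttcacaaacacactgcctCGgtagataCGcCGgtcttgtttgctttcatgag
Erg intron B: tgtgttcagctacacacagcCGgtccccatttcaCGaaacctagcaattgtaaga

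The CpGs of fragment A did not move together. In the first combination library its cytosines at 95373080, 95373089 and 95373092 read 28.9%, 100% and 28.9%, and in the second 7.14%, 92.9% and 100%. The tile of fragment B (chr16:95469001-95470000, 3 cytosines, of which 2 lie in the fragment) was called lower with C29 and with 5-azadC, by 29.1 and 37.7 points in pooled reads. It read 43.6% and 81.6% with vehicle, 31.9% and 37.6% with C29, 30.5% and 22.2% with 5-azadC, and 58.3% and 41.0% with both drugs. Without vehicle library 2 the differences were -9.08 and -17.7 points, and neither call remained.

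Etv6 held 1 named tile (chr6:134182001-134183000, 4 cytosines), at 95.2% and 88.8% with vehicle, 84.7% and 83.8% with C29, 57.7% and 78.4% with 5-azadC, and 64.7% and 90.6% with both. The 5-azadC difference was -25.2 points, -14.5 without the first 5-azadC library and -21.0 without the first vehicle library, and either omission ended the call. The cytosine at 134182823, the first in the fragment, read 100% in all 4 libraries without 5-azadC, 37.5% and 25.8% with 5-azadC, and 42.9% and 90% with both drugs. The fragment is shown for that cytosine, together with that of a 1-cytosine tile that was chosen after its values were seen (chr6:134182803-134182917 and chr6:134159951-134160011, plus strand, capitals as before).
Etv6 intron A: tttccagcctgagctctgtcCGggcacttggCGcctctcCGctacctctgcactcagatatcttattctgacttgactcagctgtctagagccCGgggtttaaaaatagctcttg
Etv6 intron B: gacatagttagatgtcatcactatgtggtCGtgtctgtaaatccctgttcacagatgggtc

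The single CpG of fragment B read 58.3% and 100% with vehicle, 0% and 42.9% with C29, and 0% in all 4 libraries with 5-azadC. The pooled difference was -87.3 points with 5-azadC and with both drugs, the largest of the 76 tiles, and -67.8 points with C29, also called. The depth was 11 to 99 reads, so the lowest value still had an exact 95% binomial interval of 0 to 28.5% at 11 reads. The adjoining tile (chr6:134160001-134161000, 1 cytosine, 47 to 146 reads) showed no such loss with 5-azadC. It differed from vehicle by 2.48 points with 5-azadC, 2.29 with both drugs and -35.8 with C29.

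Etv4 held a tile of 7 cytosines (chr11:101772001-101773000) at 57.4% and 78.1% with vehicle, 64.9% and 16.5% with C29, 33.1% and 52.8% with 5-azadC, and 34.5% and 47.6% with both drugs. It was called lower with C29 (-28.2 points) and with both drugs (-29.0 points), but not with 5-azadC (-23.8 points). The C29 call came from 1 library, and without C29 library 2 the difference was -2.32 points. The combination call was lost without vehicle library 2 (-19.1 points) or without the first combination library (-19.6 points).

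Ets1 held a tile (chr9:32747001-32748000, 4 cytosines) called with both drugs, at 18.9% and 57.0% with vehicle, 48.1% and 53.4% with C29, 44.1% and 18.2% with 5-azadC, and 0% and 22.3% with both drugs. The difference from vehicle was -26.4 points, and -7.19 points without vehicle library 2. A further 2 Ets1 tiles of 1 or 2 cytosines were called with 5-azadC, at -61.4 and -29.2 points.

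Fli1 held the only 2 tiles of 3 or more cytosines called higher than vehicle. In the first (chr9:32451001-32452000, 4 cytosines) the values were 59.7% and 38.1% with vehicle, 86.5% and 73.8% with C29, 76.9% and 55.7% with 5-azadC, and 53.8% and 65.6% with both drugs. In the second (chr9:32518001-32519000, 4 cytosines) they were 39.0% and 46.8% with vehicle, 68.8% and 80.0% with C29, 66.9% and 43.8% with 5-azadC, and 39.0% and 72.3% with both. Both C29 libraries lay above both vehicle libraries in each tile, by 30.2 and 31.2 pooled points. The edgeR p, unadjusted, was 0.128 and 0.150, and adjusted 1. The first call was lost without C29 library 1 (21.5 points) or without vehicle library 2 (22.9 points).

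**Figure D4:**
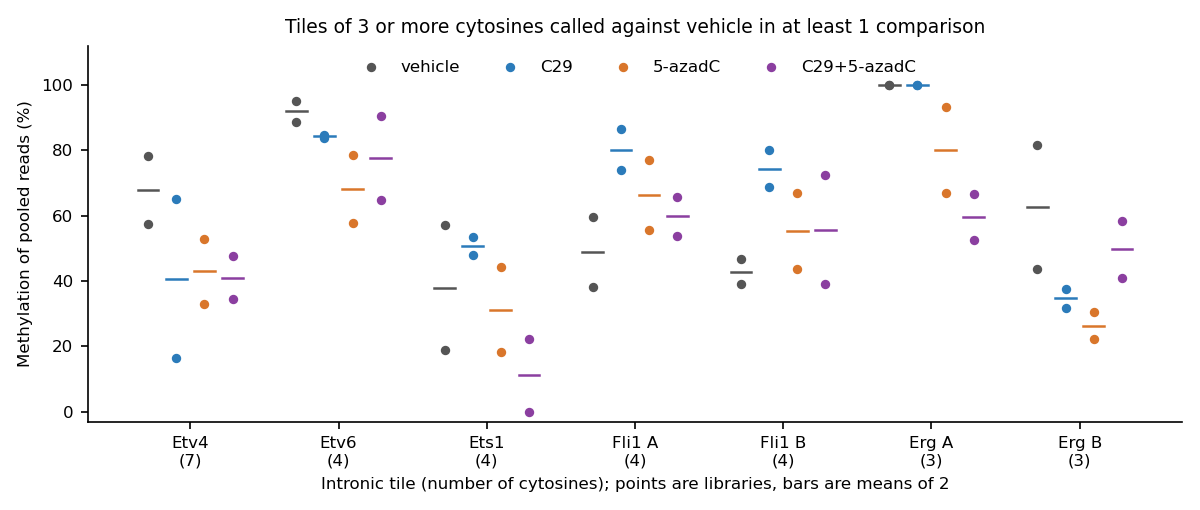
Percent methylation of pooled reads in each library (points, coloured by treatment, with a bar at the mean of 2) in the 7 intronic tiles named in the text. The Erg A tile lies at 100% in all 4 libraries without 5-azadC, both C29 libraries lie above vehicle in the 2 Fli1 tiles, and libraries of 1 group often lie 20 points or more apart.

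In 4 of the 76 ETS tiles all 4 libraries with 5-azadC lay below all 4 without (5.26%), against 5.33% of all tiles. They were the Erg tile at 100%, a 1-cytosine tile of Etv6, a 2-cytosine tile of Ets1 that also lies in Gm27240, and an intronic tile of Ets2 (chr16:95714001-95715000, 6 cytosines). The Ets2 tile, named because it is 1 of these 4, read 76.6% and 79.9% with vehicle, 92.6% and 87.9% with C29, 72.0% and 71.9% with 5-azadC, and 51.8% and 59.8% with both drugs. At Etv1, a tile at chr12:38856001-38857000 read 100% in 6 libraries and 80.5% and 82.8% with 5-azadC alone, and was not called (also named after its values were seen). Upstream of the start-site region, Etv6 had 2 cytosines at 68.6% to 100%, and Elf3 1 cytosine (also in Rnpep and Gm26642) at 52.8% in vehicle library 2 and 100% in the other 7. The Elf3 tile was called higher by 28.3 points in all 3 comparisons with vehicle because of that 1 vehicle library.

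Other ETS genes and genes around the PEA3 group were also mostly unmethylated at start sites. Start-site regions stayed below 5% in all libraries in 6 of 10 measured genes among 16 other ETS factors, and in 12 of 13 regulators and targets, which include the repressor Cic, the ubiquitin ligase gene Cop1 and the feedback inhibitors Spry1, Spry2, Spry4, Dusp4 and Dusp6. The exception was the receptor gene Erbb2 at its annotated mouse locus, at 28.6% to 46.6% over 33 cytosines. None of these start-site regions or gene bodies passed limma. Tiles were called in 4 (C29), 12 (5-azadC) and 10 (combination) of 62 for the other ETS genes (6.45%, 19.4% and 16.1%), and in 14, 46 and 44 of 302 for the regulators and targets (4.64%, 15.2% and 14.6%), against 10.6%, 15.4% and 15.1% of all tiles. The median body difference with 5-azadC was -2.80 and -2.99 points. The largest single ones were -14.6 points at Elk3 and 0.58 at Elf5 among the other ETS genes, and -9.83 at Fgfr1 and 9.81 at Spry4 among the regulators and targets.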

How the data were processed

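RRBS was analysed from 8 mouse tumor libraries in 4 groups, assigned by the sample titles. Per the labels and methods, the authors used FastQC 0.11.8, Trim Galore 0.4.1, Bismark 0.20.0 on mm10/GRCm38 and methylKit 1.7.0. The deposited files give, per cytosine and strand, the fraction of methylated reads and the count of reads, both made by the authors without normalization. A coverage limit of these files is not given in the sources used here.

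Cytosines with 10 or more reads in all 8 libraries on 20 chromosomes were kept and grouped in 1000 bp tiles. Tiles were compared by a logistic likelihood-ratio test on pooled reads, called at a Benjamini-Hochberg q below 0.01 and 25 points. The edgeR quasi-likelihood test and an overdispersion-corrected F test were alternatives. Regions of at least 3 cytosines were compared with limma over all genes, and single values by exact two-sided permutation. Tools were R 4.3.3, limma 3.58.1, edgeR 4.0.16, Python 3.11.15, NumPy 2.4.6, SciPy 1.17.1, pandas 2.3.3 and matplotlib 3.10.9, and the tests were tested on simulated data. The coverage minimum, the 0.1% of highest coverage, tile length, strand summing, the start-site definition, the region mean, a replicate block and each library were varied.

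All 10 genes were named, as were tiles of 3 or more cytosines called against vehicle. Other tiles were given as counts, except some tiles of Etv1, Etv4, Etv6, Ets2, Fli1 and Elf3 whose values were given after they were seen. The genes and lists were chosen with earlier results of these data known. The samples were not treated as paired by replicate number in the main tests. Same-numbered libraries had deviations correlated at -0.00636 to 0.0125 over 110029 tiles. These values show no pattern shared over the tiles, and a correlation does not register a shift of equal size at every tile. They cannot tell whether libraries shared a batch, which the labels do not give. Depth was 21 to 30 reads per cytosine at the median, and all intervals and floors cover counting error only. Sequences and promoter windows are from RefSeq (GRCm38.p6).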

Additional observations from a re-analysis of the deposited data

Results flagged for a closer look

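At the start-site region of Etv6, 5-azadC library 2 stood at 2.68% while the other 3 libraries with 5-azadC were at 0%. It met Dixon's criterion for 4 values, but with the other 3 at exactly 0 any value above 0 would, so this says nothing about how unusual it is. The value rests on 1 cytosine.

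At the Erg tile chr16:95469001-95470000, 5-azadC went with lower methylation without C29 and higher methylation with it. The mean of the 2 libraries differed by -36.3 points between 5-azadC and vehicle and by 14.9 points between both drugs and C29 alone, so the effects differed by -51.2 points. Every library followed its group's direction, but the difference was not tested.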

How the results depend on the processing

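The tile counts for C29, 5-azadC and the combination against vehicle, the combination against 5-azadC and the combination against C29 (9, 15, 14, 6 and 13) became 3, 5, 8, 3 and 7 at 20 reads, where fewer tiles were tested, and 0 in all 5 under the F test and under edgeR, which use the spread between libraries. With 500 bp tiles the combination against 5-azadC gave 10, and at 5 reads the combination against vehicle gave 21 and the combination against 5-azadC 9. Leaving out each library in turn gave 12 to 15, 14 to 21, 14 to 24, 12 to 15 and 15 to 21. The replicate block left every count as it was, at 9, 15, 14, 6 and 13, and 0 in limma. No start-site region passed limma in a run that kept 2 libraries per group. Etv6 without 5-azadC replicate 1 is not counted. Its only value above 0 was then the 2.68% of the 1 library left with 5-azadC alone. No group had any spread, so that fit cannot decide about either drug. The 5-azadC difference changed sign at the Erg start site at 5 reads (-2.08 points) and without single libraries (-6.87 to 8.27), at the Fli1 start site at 20 reads (-3.26), with pooled reads (-1.88) and without single libraries (-1.48 to 3.22), and at the Etv5 body without single libraries (-4.63 to 4.13). None of these differences had passed the test, and the cause was not tested. The gene body counts stayed at 0 in every alternative run. The named Etv4 tile (C29 and combination) and the named Erg tiles (5-azadC at 5 reads, fragment B at 20 reads) also lost calls at other coverage minimums. Precision was limited by 2 libraries per group and by the few measured cytosines, 1.67% of those in the genes.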

Other observations

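Among the 16 other ETS genes, the largest start-site difference with 5-azadC was at Ehf, an epithelial ETS factor, at -11.3 points over 3 cytosines (limma adjusted p = 0.704). In the gene body, all 4 libraries with 5-azadC lay below the other 4 in 2 of 8 other ETS genes (Elk3 at -14.6 and Etv3 at -12.8 points) and in 3 of 9 regulators and targets (Erbb2 at -6.18, Fgfr2 at -2.99 and Dusp4 at -2.38 points), against 18% of all gene bodies. None of these 5 passed limma. Of the 2 fibroblast genes with a measured start site, Col1a2 (4 cytosines) read 54.7% and 57.0% in the libraries with both drugs and 11.7% to 31.6% in the other 6, while Pdgfra (13 cytosines) read 0% in both libraries with both drugs and at most 0.758% in the others.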
